A study of Mus musculus with 12 samples.

Results

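The genes described here encode the enzymes that bring pyruvate into mitochondria, the tricarboxylic acid (TCA) cycle and the enzymes that connect the cycle to glutamine. They were taken by gene symbol from a list of 35, and all 35 were found among the 17922 genes of the table. RNA had been sequenced from primary chondrocytes (cartilage cells) released from mouse ribs by overnight collagenase digestion and then cultured for a day, in 12 samples forming 4 groups of 3. The LDH knockout, at postnatal day 5, carried Col2-Cre, 2 floxed Ldha alleles (fl/fl) and the genotype +/- at Ldhb. The Acly knockout, at E18.5 (days of embryonic life), carried Col2-Cre and 2 floxed Acly alleles (fl/fl). Each had littermate controls of the same age, labelled LDH and Acly without the letters KO, whose alleles and Cre status are not given in the sources used here. All mice were of a mixed strain with C57BL/6 dominant. Col2-Cre acts in cells that use the collagen II promoter, so other cells of the rib cartilage preparation would keep their alleles. How many animals went into a sample is not given in the labels, and nothing there says that samples are separate litters, so the p-values measure the spread between these samples.

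Pyruvate, the end product of glycolysis, is either reduced to lactate by lactate dehydrogenase or carried into mitochondria by the Mpc1-Mpc2 carrier. There the pyruvate dehydrogenase (PDH) complex turns it into acetyl-CoA. Kinases (Pdk1 to Pdk4) switch the complex off by phosphorylation and phosphatases (Pdp1, Pdp2) switch it on. Citrate made from acetyl-CoA by citrate synthase can stay in the cycle or leave for the cytoplasm, where ATP citrate lyase (Acly) splits it again. Glutamine enters as glutamate and then 2-oxoglutarate. Ldha thus competes with these enzymes for pyruvate, and Acly uses citrate that they make.

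The libraries held 26362407 to 28154143 expected counts each, a total at which 3 counts equal 0.107 to 0.114 CPM (counts scaled to the library total). Levels below are CPM after TMM normalization within the 6 samples of a set unless TPM (which allows for transcript length) is named. Ldha was at 79.3, 88.6 and 92.1 CPM in LDH knockouts and at 851, 792 and 894 CPM in their controls. Ldhb, labelled +/- in these knockouts, was not lower there, at 14.6, 16.3 and 14.2 CPM against 12.3, 11.3 and 11.4 CPM, each knockout above each control (0.37 on the log2 scale, edgeR adjusted p of 0.115). The Ldhb level therefore does not check that label, and the alleles of the controls are not given. Acly was at 83, 52.5 and 86.9 CPM in Acly knockouts and at 197, 192 and 202 CPM in their controls. Of the chondrocyte markers, Col2a1 lay between 5580 and 23200 CPM over all samples and makes up most of the chondrocyte marker sums below. Matn1 of the same list was near the level of 3 counts in the LDH set, at 0.11 to 0.26 CPM in knockouts and 0 to 0.15 CPM in controls. The Y-linked genes summed to at most 0.0367 CPM in the 3 LDH knockouts but to 93, 102 and 0.59 CPM in LDH control replicates 1 to 3, and in the Acly set to 0.0755, 74.3 and 82.8 CPM in knockouts and 0.375, 121 and 2.83 CPM in controls. Signal of other cell types also moved with the groups. Fat cell markers summed to 81.6 to 148 CPM in LDH knockouts against 39.8 to 53.7 CPM in controls, with 7 of 9 tested higher. The chondrocyte markers summed to 18500 to 27900 against 10100 to 11700 CPM, with 4 of 6 higher. Bone-forming cell markers summed to 80.8 to 106 against 147 to 262 CPM, with 2 of 5 lower. In the Acly set the chondrocyte markers summed to 14600 to 17200 CPM in knockouts and 8690 to 9430 CPM in controls, with 2 of 7 higher. The fibroblast and perichondrium markers summed to 615 to 1590 CPM in knockouts and 2010 to 2290 CPM in controls, and skeletal muscle markers to 124 to 283 and 253 to 346 CPM, with 0 of 4 and 0 of 9 past the threshold. No marker of these lists was at 0 in all 12 samples. With the Y-linked signal as a covariate 3 genes of the whole table passed in the LDH set, in place of 332. That signal largely coincides with the groups, being high only in control replicates 1 and 2, so this fit cannot tell it from the knockout. The LDH calls below rest on samples that, apart from control replicate 3, also differ between the groups in that signal. The part of these differences in the results below was not tested, and in such bulk samples fewer cells of a type and less RNA per cell cannot be told apart.

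In these chondrocytes Mdh2, the mitochondrial malate dehydrogenase, was the most abundant of the 35 genes, at 489 to 591 TPM over the 12 samples, above every sample of every other gene. Got2, the mitochondrial aspartate transaminase, followed with 283 to 364 TPM and Idh3g, a regulatory subunit of the NAD-dependent isocitrate dehydrogenase, with 269 to 373 TPM, and these 2 overlapped. Got1, the cytosolic aspartate transaminase (117 to 225 TPM), citrate synthase Cs (118 to 179 TPM), Idh3b (125 to 159 TPM) and the PDH E1 subunit Pdhb (106 to 150 TPM) came next without separation between neighbours. At the low end stood Pdp1 (1.79 to 5.15 TPM), Pdk4 (1.17 to 5.34 TPM), Pdp2 (2.38 to 3.71 TPM) and the malic enzyme Me3 (0.47 to 1.88 TPM). Of the PDH subunits Pdhx had the lowest mean, with overlap with Dlat (20.2 to 32.3 TPM). Pdhx lay at 15.8 to 24 TPM, above every sample of Pdk1, Pdk2, Pdk4 and both phosphatases, whereas Pdk3 lay above Pdhx at 27.1 to 46.3 TPM. Summed over all 35 genes the level was 2840 to 2920 TPM in LDH knockouts and 2810 to 2940 TPM in their controls, and 2850 to 3050 TPM against 2930 to 2990 TPM in the Acly set. Both pairs of TPM ranges overlap. In CPM the sums were 3020 to 3090 in LDH knockouts and 2990 to 3050 in their controls, also with overlap. In the Acly set they were 3170 to 3360 CPM in knockouts and 3050 to 3150 CPM in controls, without overlap, so the reading depends on the scale. These sums were not tested.

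**Figure D1:**
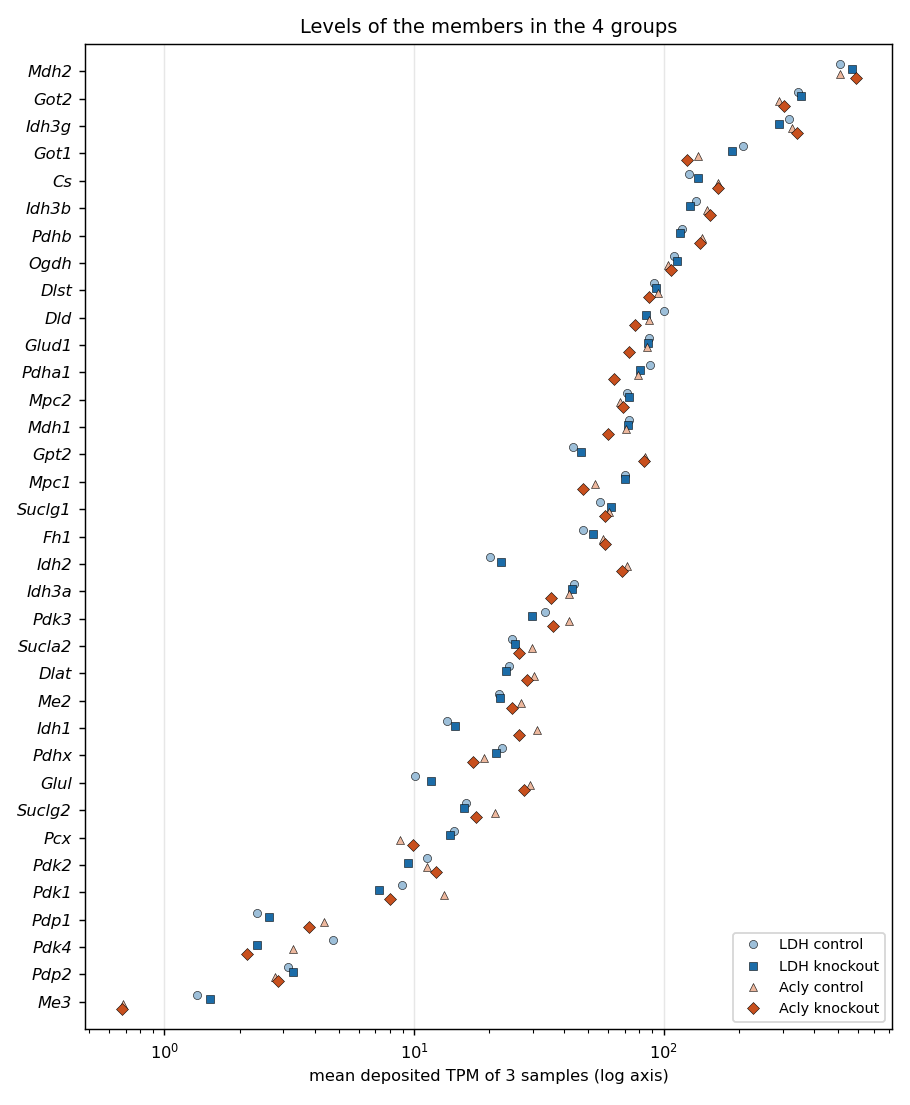
Mean deposited TPM (log axis) of each of the 35 genes in the 4 groups of 3 samples, ordered from the highest to the lowest mean. Mdh2 lies at the top and Me3 at the bottom, and the knockout and control symbols of a set lie close to each other for most genes, while the sets differ for Idh2, Idh1 and Glul.

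Isoform composition was read from TPM within each family. Pdk3 made up most of the PDH kinase RNA in every sample, its share lying between 55.7% and 66% over the LDH samples and between 57.7% and 64% over the Acly samples. Pdk4, the isoform known for its induction by fasting and fatty acids, made up 2.6% to 6.6% in LDH knockouts and 7.1% to 9% in their controls. In the Acly set the share of Pdk4 was 3.5% to 4% in knockouts and 4.4% to 5.2% in controls. Pdk1 made up 12.4% to 15% in Acly knockouts and 16.5% to 20.3% in their controls, and its shares overlapped in the LDH set. Of the malate dehydrogenases the mitochondrial Mdh2 held 86.1% to 92.2%, and the cytosolic Mdh1 the rest. In the Acly set the share of Mdh1 was 10%, 7.8% and 9.8% in knockouts and 11.2%, 13.7% and 11.7% in controls, without overlap. For the aspartate transaminases the cytosolic Got1 held 29.9%, 29.5% and 27.4% in Acly knockouts and 31.2%, 32.4% and 32.7% in controls, again without overlap, and 33.6% to 35.9% against 35.8% to 38.7% in the LDH set, where the ranges overlap. These shares were singled out after they were seen and carry no test. Suclg1, the subunit common to both succinyl-CoA ligases, made up 52.3% to 60.7% of that family. The ATP-forming partner Sucla2 exceeded the GTP-forming partner Suclg2 in every sample, with 22.7% to 28.2% against 15% to 20.9%.

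Pdk1 and Pdk4 had the most negative estimates of the 35 genes in both knockouts, so their promoter windows are shown. They are also the 2 kinases whose knockout and control values did not overlap in either set. Pdk1 is a textbook target of the hypoxia-inducible factor (HIF), whose binding core is ACGTG or GCGTG. The windows run from 250 bases before to 50 bases after the start, come from RefSeq (GRCm38.p6), and have matches to that core on either strand in capitals. For Pdk1 the window is chr2:71872974-71873273 on the plus strand, with matches that begin 78 and 2 bases before the start. For Pdk4 it is chr6:5496229-5496528 on the minus strand, with 1 match that begins 71 bases before the start.
Pdk1: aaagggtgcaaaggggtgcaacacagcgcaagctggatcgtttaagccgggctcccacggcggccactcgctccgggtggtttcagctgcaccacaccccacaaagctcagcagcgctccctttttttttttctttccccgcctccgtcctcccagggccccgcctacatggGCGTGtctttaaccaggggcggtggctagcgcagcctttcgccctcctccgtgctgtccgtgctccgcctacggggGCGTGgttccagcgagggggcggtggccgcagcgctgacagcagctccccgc
Pdk4: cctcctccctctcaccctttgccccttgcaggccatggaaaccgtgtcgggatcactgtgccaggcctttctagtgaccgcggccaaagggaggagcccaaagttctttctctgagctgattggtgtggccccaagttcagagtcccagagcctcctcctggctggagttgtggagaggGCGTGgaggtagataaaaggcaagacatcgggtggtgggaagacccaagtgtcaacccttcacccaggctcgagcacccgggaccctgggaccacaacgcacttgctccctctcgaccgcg
A second annotated start of Pdk1 had 0 matches. The core was also in windows of Pdk2 and Pdk3, so its presence does not set Pdk1 and Pdk4 apart from the other kinases. RefSeq windows were found for 32 of the 35 genes (42 starts), and Pdp1, Idh3a and Me2 had none. The HIF core was in 28 of these 42 windows (66.7%) and in 43.8% of all 32851 windows, the CCAAT box (CCAAT) in 61.9% and 37.4%, and the core of the nuclear respiratory factor NRF1 (GCGCA, then any base, then GCGC) in 2 of 42 (4.76%, Dld and Sucla2) and 4.6%. TCAAGGTCA, the core of the estrogen-related receptors, was in 0 of 42 and in 0.423% of all windows. Both strands were searched, both HIF cores share the letters CGTG, and a match is a description of the letters only.

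The LDH comparison sets Ldha-deleted chondrocytes against those of littermates. By edgeR, 0 of the 35 genes had an adjusted p under 0.05, where 2.49% of the 13321 genes tested did (1.43% higher, 1.07% lower). At an unadjusted p under 0.05 there were 4 of the 35 by edgeR (19.6% of all genes tested). With DESeq2 1 gene, Pdk4, passed. DESeq2 also called more genes of the whole table than edgeR did, as given in the closing section, so the edgeR share is not its background. The median log2 fold change of the 35 was 0.02, that of all genes tested 0.01, and the median size of change, sign left out, 0.10 against 0.15. All 35 had passed the filter on low counts. For 32 of the 35 (91.4%) the 95% interval of the difference lay within a 1.5-fold change either way, as it did for 65.6% of all genes tested. Changes of that size in those 32 genes were therefore outside the interval. The 3 knockouts lay entirely above the 3 controls for 4 of the 35 genes and entirely below for 4, against 11.8% and 12.6% of all genes tested (24.4% together).

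**Figure D2:**
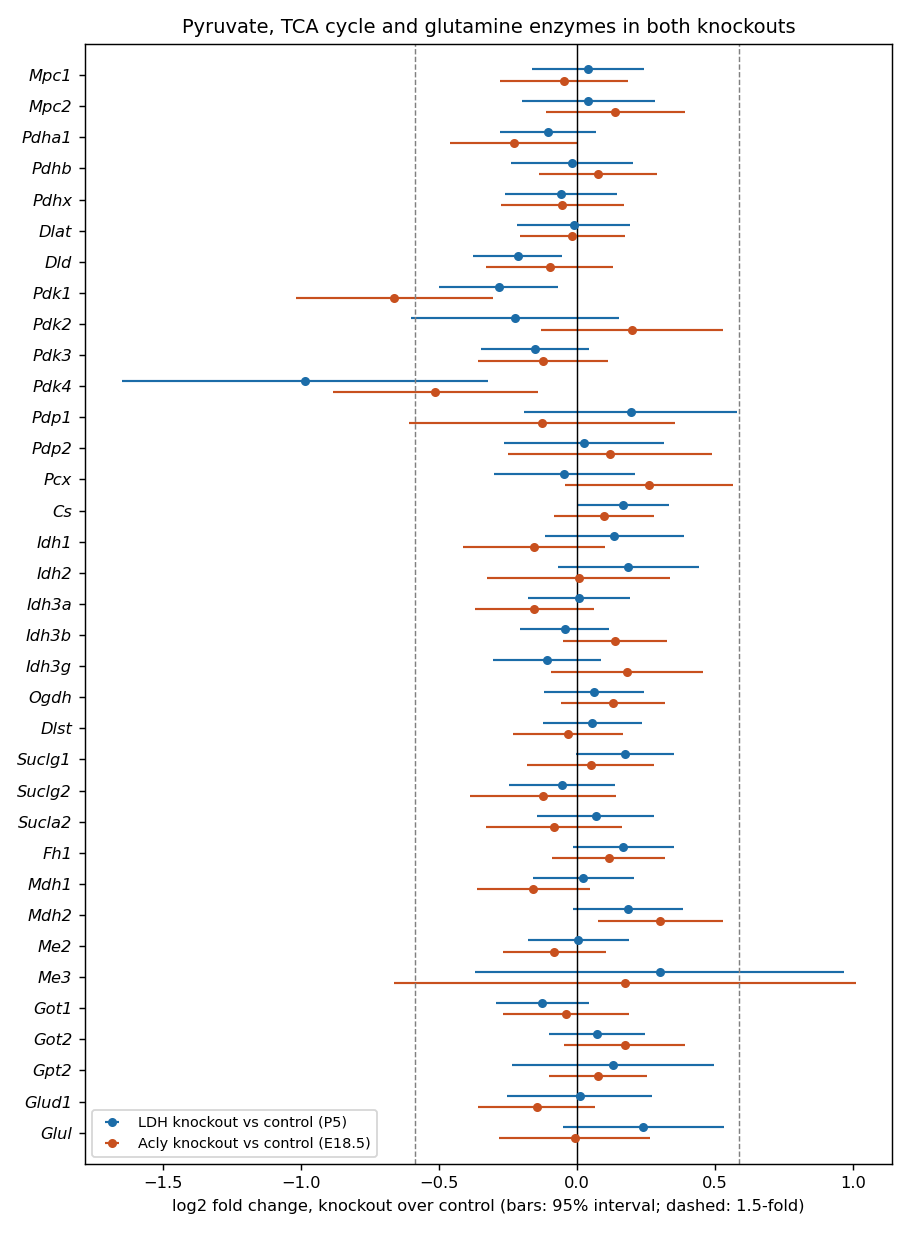
Log2 fold change of each of the 35 genes, knockout over control, in the LDH set (blue) and the Acly set (orange), with 95% intervals from edgeR (n = 3 per group), and dashed lines at a 1.5-fold change. Most points lie near 0 with intervals inside the dashed lines, whereas Pdk4 (-0.99) in the LDH set and Pdk1 (-0.66) in the Acly set lie farthest to the left.

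All 4 PDH kinase genes had negative estimates in the LDH knockout and none passed. Pdk4 was at 4.43, 2.19 and 6.25 CPM in knockouts and 9.48, 7.81 and 8.26 CPM in controls, so all knockouts lay below all controls. Its log2 fold change was -0.99 (95% interval -1.65 to -0.32, standard error 0.30), with an adjusted p of 0.11 by edgeR and 0.0117 by DESeq2. Without knockout replicate 3, the highest of the knockouts, it was -1.36 with an edgeR adjusted p of 0.021. More genes of the whole table passed in that fit too. Over the 16 alternatives the Pdk4 estimate ranged from -1.36 to -0.67. It passed only with DESeq2 and without knockout replicate 3. Among the 4 samples without Y-linked signal, where control replicate 3 is the only control, it was -0.94. Pdk1 was at 17.6, 18 and 17.6 CPM against 21.4, 23.2 and 20.2 CPM, also without overlap. It stood at -0.28 (-0.50 to -0.07) on the log2 scale, with an edgeR adjusted p of 0.149, and at -0.18 among the samples without Y-linked signal. Pdk2 (-0.23) and Pdk3 (-0.15) had knockout values that overlapped the controls. The phosphatases Pdp1, with 5.26, 6.36 and 5.92 CPM against 5.83, 5.37 and 4.13 CPM, and Pdp2 had estimates of 0.19 and 0.02.

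The pyruvate carrier and the PDH complex itself differed little. Mpc1 and Mpc2 were each at 0.04 on the log2 scale. The 5 subunit genes ranged from -0.21 to -0.01. Dld, the E3 subunit shared with the 2-oxoglutarate dehydrogenase complex, had the lowest of these values. It was at 98.6, 102 and 102 CPM in knockouts and 111, 124 and 117 CPM in controls, without overlap, with an edgeR adjusted p of 0.145. Pyruvate carboxylase Pcx, which makes oxaloacetate from pyruvate, was at -0.05 (-0.30 to 0.21).

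Within the cycle, 4 genes were higher in all LDH knockouts than in all controls and did not pass. Cs, which makes citrate, was at 210, 214 and 196 CPM against 187, 184 and 182 CPM, a log2 fold change of 0.17 (0.00 to 0.33) with an edgeR adjusted p of 0.252. Suclg1, fumarase Fh1 and Mdh2 had 0.17, 0.17 and 0.19 with edgeR adjusted p between 0.269 and 0.289. Among the 4 samples without Y-linked signal, where control replicate 3 is the only control, Mdh2 was at 0.04 and Suclg1 at 0.10. With that signal as a covariate they were at 0.01 and 0.09. Mdh2 was at 378, 375 and 365 CPM against 315, 306 and 363 CPM, where control replicate 3 came close to the knockouts. Ogdh and Dlst, the E1 and E2 subunits of 2-oxoglutarate dehydrogenase, were at 0.06 and 0.06. The isocitrate dehydrogenases ranged from -0.11 (Idh3g) to 0.19 (Idh2). Idh2, the mitochondrial NADP-dependent form, was at 19.3, 22.1 and 18 CPM against 18.7, 16.3 and 17.2 CPM, with overlap. The expected counts of Ogdh were not whole in any sample, and the cause was not tested. The other 34 genes had whole counts throughout.

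Among the enzymes of glutamate and glutamine, Glul, glutamine synthetase, had the largest positive estimate in the LDH set among genes above 5 CPM. It was at 17.1, 20.3 and 14.7 CPM in knockouts and 14.4, 14.9 and 14.9 CPM in controls, with overlap through knockout replicate 3, at 0.24 (-0.05 to 0.53) and an edgeR adjusted p of 0.346. Glutamate dehydrogenase Glud1 was at 0.01, and the alanine transaminase Gpt2 at 0.13. Got1 had 201, 195 and 208 CPM in knockouts against 219, 229 and 212 CPM, each knockout below each control. In TPM Got1 overlapped between the groups, at 177 to 198 in knockouts against 190 to 225 in controls. Its estimate was -0.12 on the log2 scale with an edgeR adjusted p of 0.398. Among the samples without Y-linked signal, with control replicate 3 as the only control, it was -0.07. Got2 was at 0.07. Me3 stood at 0.30 with the wide interval of -0.37 to 0.97 at levels of 1.21 to 2.47 CPM.

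**Figure D3:**
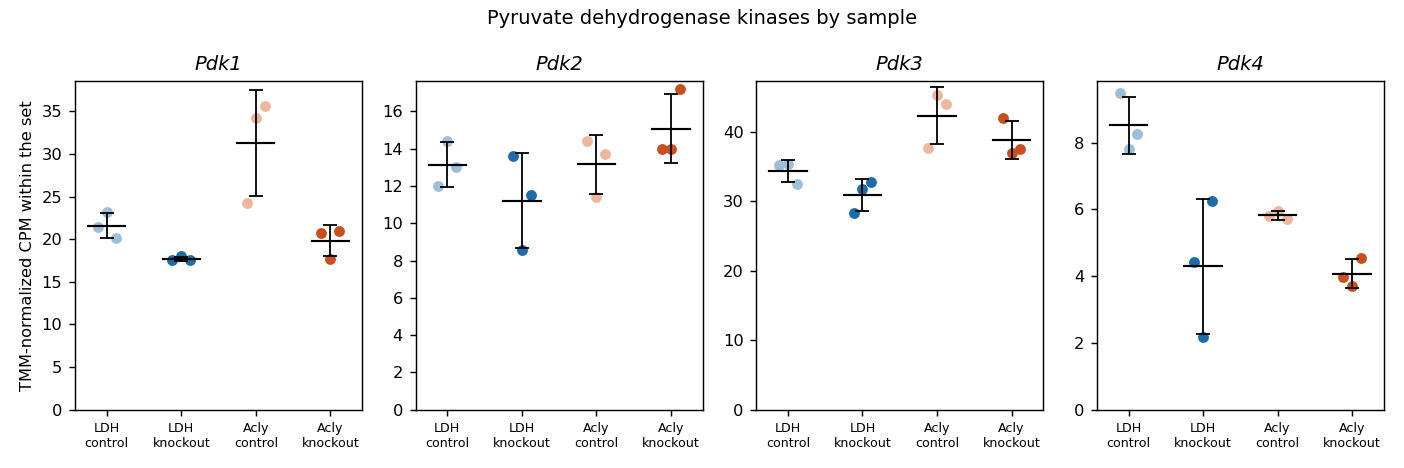
TMM-normalized CPM of the 4 PDH kinase genes in each sample, with the group mean (line) and SD (bars, n = 3), scaled within each set. Pdk4 knockout values (2.19 to 6.25 in the LDH set, 3.71 to 4.55 in the Acly set) lie below all their controls, as do those of Pdk1, and the groups of Pdk2 and Pdk3 overlap.

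In the Acly comparison edgeR gave an adjusted p under 0.05 to 0 of the 35 genes. The background was 0.136% of the 13973 genes tested (0.0573% higher, 0.0787% lower). At an unadjusted p under 0.05 there were 3 of the 35 by edgeR (15.8% of all genes tested). With DESeq2 1 gene, Pdk1, passed. Here too DESeq2 called many more genes of the whole table than edgeR did, as given in the closing section. The median log2 fold change was -0.02, that of all genes tested -0.002, and the intervals of 31 of the 35 (88.6%) lay within a 1.5-fold change, against 60% of all genes tested. The 3 knockouts lay entirely above their controls for 5 of the 35 and entirely below for 3, against 10.4% and 11.4% of all genes tested (21.9% together).

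Pdk1 and Pdk4 had the most negative values of the 35 genes, and the other kinases did not follow them. Pdk1 was at 20.7, 17.7 and 21 CPM in Acly knockouts and 24.2, 34.2 and 35.6 CPM in controls, without overlap, control replicate 1 lying closest to the knockouts. Its log2 fold change was -0.66 (-1.02 to -0.30, standard error 0.16), with an adjusted p of 0.19 by edgeR and 0.0156 by DESeq2. The estimate was -0.58 without knockout replicate 2 and -0.81 without control replicate 1, the edgeR adjusted p being 0.116 and 0.109. Pdk4 was at 3.98, 3.71 and 4.55 CPM against 5.81, 5.96 and 5.7 CPM, at -0.51 (-0.89 to -0.14) with an edgeR adjusted p of 0.253. Pdk3 was at -0.12, and Pdk2 at 0.20, with 14, 14 and 17.2 CPM against 14.4, 11.4 and 13.7 CPM.

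Other genes known as HIF targets were set beside Pdk1 from a list of 16. In the Acly set 15 of the 16 had negative estimates, as did 7029 of all 13973 genes tested. Their median log2 fold change was -0.30 against -0.002 for all genes tested. One of them, Car12, a carbonic anhydrase, passed at -0.93 with an edgeR adjusted p of 0.0314. In the LDH set, where 15 were tested, the median was 0.02 with 8 positive and 7 negative. P4ha2, a subunit of collagen prolyl hydroxylase, was the 1 that passed, higher at 0.54 with an edgeR adjusted p of 0.0264. For the difference between both knockout effects 0 of the 16 passed, the lowest edgeR adjusted p being 0.058. At an unadjusted edgeR p under 0.05 there were 10 of the 16 (13% of all genes tested). This list had earlier results of these data in view and is not independent evidence of a direction.

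The remaining pyruvate and PDH genes in the Acly set ranged from -0.23 to 0.26. Pdha1, the E1 alpha subunit that the kinases phosphorylate, was at 109, 93.1 and 94.2 CPM against 105, 119 and 123 CPM, with overlap, at -0.23 (-0.46 to 0.00). Pcx was at 23.7, 24.2 and 20.3 CPM against 20.5, 16 and 20.5 CPM, at 0.26 (-0.04 to 0.56). Mpc1 and Mpc2 were at -0.05 and 0.14.

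Mdh2 had the largest positive estimate of the Acly set. It was at 376, 438 and 390 CPM in knockouts and 350, 299 and 329 CPM in controls, without overlap, at 0.30 (0.08 to 0.53) with an edgeR adjusted p of 0.257. Its cytosolic counterpart Mdh1 was at 65.2, 57.9 and 66.4 CPM against 69.1, 74.2 and 68.2 CPM, without overlap in the other direction, at -0.16 with an edgeR adjusted p of 0.398. In CPM, Cs, Idh3b, Ogdh and Gpt2 were also higher in all knockouts than in all controls, with estimates of 0.10, 0.14, 0.13 and 0.08. None of them passed. In TPM the knockouts and controls overlapped for each of these genes, whereas Mdh2 and Mdh1 stayed without overlap. The subunits of the NAD-dependent isocitrate dehydrogenase did not have a common sign, at -0.15 for the catalytic Idh3a against 0.14 and 0.18 for Idh3b and Idh3g. Idh1, the cytosolic form, was at -0.15, and Idh2 at 0.01, with 70.4, 47.3 and 67.2 CPM against 65.4, 62.3 and 56.6 CPM, knockout replicate 2 being the lowest. Got2 was at 0.17, Got1 at -0.04, Glud1 at -0.15 and Glul at -0.01.

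The difference between both knockout effects was tested directly, with gene deleted, age and set inseparable. It passed for none of the 35 genes by edgeR, where 0.161% of 14251 genes passed (0.0912% higher, 0.0702% lower), and none had an unadjusted p under 0.05 (13% of all genes tested), nor did any pass with DESeq2. For Pdk1 the LDH effect minus the Acly effect was 0.39 (-0.02 to 0.80), for Pdk4 -0.46 (-1.28 to 0.36), for Pdk2 -0.41 (-0.92 to 0.10) and for Pdk3 -0.01 (-0.31 to 0.28). The intervals of 26 of the 35 lay within a 1.5-fold difference, so for the others a larger difference between the knockouts was within the interval.

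Neighbouring steps of the same pathways were read from 3 further lists. Of 18 other pyruvate, TCA cycle and glutamine enzymes (among them aconitases, succinate dehydrogenase subunits and glutaminases) 1 passed in the LDH set and 0 in the Acly set by edgeR, with 2 and 3 at an unadjusted p under 0.05 and medians of -0.01 and 0.05. The 1 was Pck1, cytosolic phosphoenolpyruvate carboxykinase, which is also strongly expressed in fat cells. It was higher in LDH knockouts, at 1.38, 2.23 and 0.841 CPM against 0, 0.247 and 0.0375 CPM, with an edgeR adjusted p of 0.026. Fat cell markers were higher in the same 3 samples as given above, and their part in the Pck1 difference was not tested. Of 11 tested mitochondrial metabolite carriers 0 passed in either set by edgeR, with 0 and 1 at an unadjusted p under 0.05. Of 10 tested glutamine, glutamate and aspartate transporters 1 passed in the LDH set and 0 in the Acly set, with 1 and 3 at an unadjusted p under 0.05. That was Slc38a3, a glutamine transporter, which was higher in LDH knockouts, at 26.5, 41.5 and 38.2 CPM against 17.4, 17.3 and 24.2 CPM, by 0.85 on the log2 scale with an edgeR adjusted p of 0.0422.

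Between the sets the 35 genes had a median size of difference of 0.24 on the log2 scale, against 0.10 and 0.12 in the knockout comparisons. Over all genes tested these medians were 0.40, 0.15 and 0.17, so the larger differences between the sets were general, and the 35 genes had smaller medians than all genes in each comparison. Their median standard errors were smaller too, at 0.095, 0.09 and 0.102 against 0.136, 0.119 and 0.136 for all genes. The background was not matched to the 35 genes by level. In Acly controls against LDH controls, where age, line and any library batch coincide and cannot be told apart, 19 of the 35 genes passed by edgeR, 7 higher and 12 lower at E18.5. The background was 55% of all 14251 genes tested (29.4% higher, 25.7% lower), so a count of 19 is no result about these genes as a group. At an unadjusted p under 0.05 there were 22 of the 35 by edgeR (60.2% of all genes tested). The split depends on scaling: without TMM 14 were higher and 5 lower, when the median of all genes lay at 0.19 in place of 0.02. Called in the same direction under all 13 alternatives were 10 genes, 5 higher (Idh2, Glul, Idh1, Gpt2 and Pdp1) and 5 lower (Pcx, Got1, Mpc1, Got2 and Pdhx). The share of all genes kept in this way was not counted, so the 10 are no result about the 35 as a group.

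The following levels are CPM scaled over all 12 samples. Idh2 was at 62.2, 58.9 and 53.6 CPM in Acly controls and 20, 17.3 and 18.1 CPM in LDH controls, at 1.66 (1.35 to 1.98) on the log2 scale with an edgeR adjusted p of 1.57e-06. Idh1, its cytosolic counterpart, was at 31.2, 36.7 and 34.2 CPM against 16.8, 17.7 and 15.8 CPM, at 1.03 (0.79 to 1.27). The subunits of the NAD-dependent enzyme did not follow: Idh3a was at -0.22, Idh3b at -0.02 and Idh3g at -0.14, of which Idh3a passed by edgeR with an adjusted p that rounds to 0.05, a call kept by 3 of 13 alternatives. Idh3b passed as higher in 3 of 13 alternatives, among them the fit without TMM at 0.16. By TPM, Idh2 made up 10.9% to 12% of isocitrate dehydrogenase RNA in Acly controls and 3.5% to 4.2% in LDH controls, a comparison within samples that does not depend on scaling.

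Glul was at 44.9, 39.1 and 36.4 CPM in Acly controls and 15.3, 15.8 and 15.7 CPM in LDH controls, at 1.37 (1.08 to 1.65) with an edgeR adjusted p of 2.93e-06. Gpt2 was higher as well, at 151, 152 and 146 CPM against 100, 73.6 and 86.5 CPM. The aspartate transaminases had the opposite direction, Got1 with 138, 133 and 137 CPM against 234, 243 and 223 CPM, at -0.77 (-0.94 to -0.60), and Got2 at -0.42. Pcx was at 19.5, 15.2 and 19.5 CPM against 34, 28.6 and 38 CPM, at -0.89 (-1.16 to -0.62), and Mpc1 at -0.53. 

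**Figure D4:**
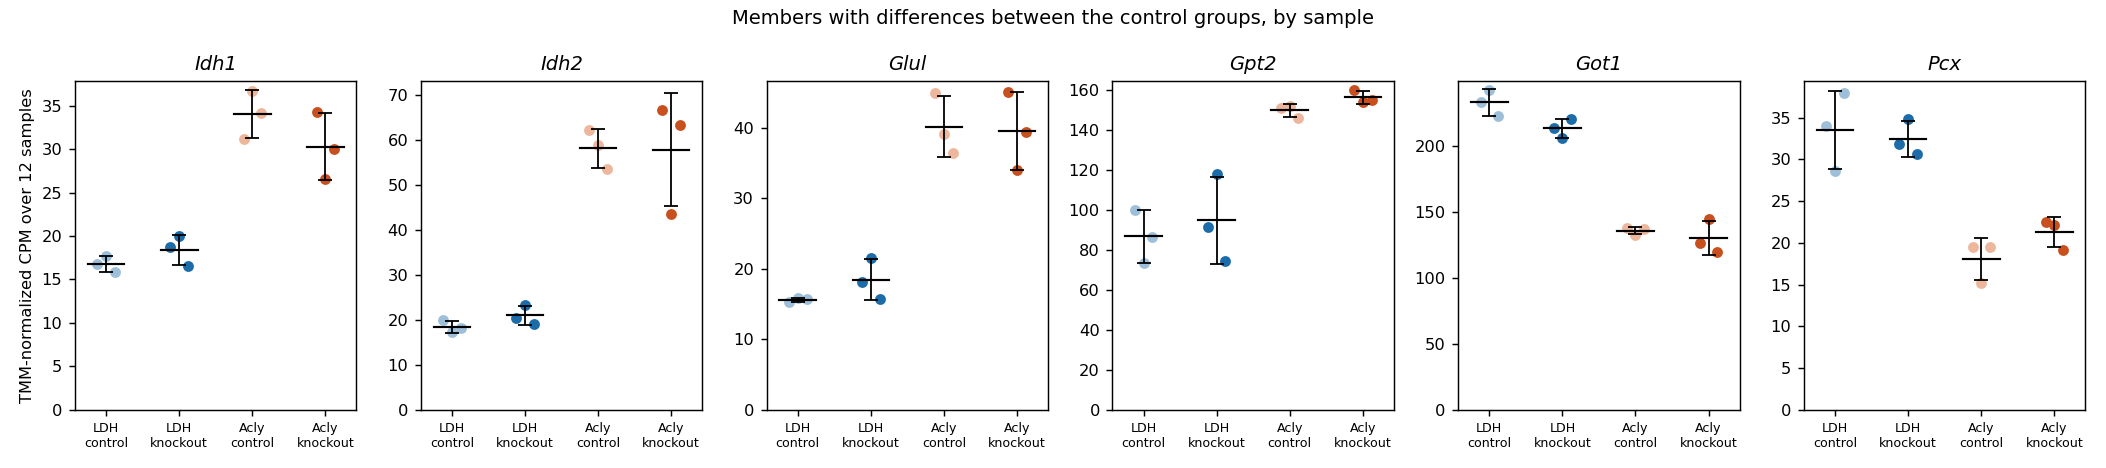
TMM-normalized CPM, scaled over all 12 samples, of 6 genes in each sample, with the group mean (line) and SD (bars, n = 3). Both LDH groups lie apart from both Acly groups for Idh1, Idh2, Glul, Gpt2, Got1 and Pcx, while knockouts overlap their controls or lie near them.

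Of the regulators, Pdp1 was higher in Acly controls at 0.74 and Pdk1 at 0.38, and Pdk4 was lower at -0.70 with an edgeR adjusted p of 0.0374, a call kept by 5 of 13 alternatives. The calls of Me3, at -0.98, and of Pdk1 were kept by 9 of 13. Markers of other cells differed between the sets too. Skeletal muscle markers summed to 355 to 458 TPM in Acly controls against 17.1 to 35 TPM in LDH controls, with 9 of 9 tested higher. Fat cell markers summed to 168 to 252 against 25.1 to 33.1 TPM, with 9 of 10 higher, fibroblast and perichondrium markers to 1200 to 1470 against 287 to 565 TPM, with 4 of 4 higher, and bone-forming cell markers to 696 to 754 against 209 to 309 TPM, with 4 of 6 higher. Chondrocyte markers summed to 3120 to 3630 against 3950 to 4450 TPM, although 5 of the 7 were called higher and 1 lower. Their part in the differences of Idh2, Glul and the other genes was not tested.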

How the data were processed

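Gene-level RNA-seq of 12 mouse rib chondrocyte samples was used, from polyadenylated RNA per the labels' protocols. The authors deposited 1 table of 17922 genes with expected counts, FPKM and TPM for each sample, per the file headers. Per the submitters' processing notes HISAT2 2.0.4 and build mm9 were named. The counting program, annotation and use of strand are not given in the sources used here, so overlapping and antisense genes are uncertain. Of the deposited expected counts 7.32% to 8.16% per sample were not whole (tolerance 1e-09), and all were rounded. The FPKM values of the authors served an alternative test, and the deposited TPM values served levels between genes, untested. Dates in gene symbols (26) were restored from Entrez identifiers with RefSeq GRCm38.p6.

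Knockout and control were compared in 6-sample fits, and the difference of effects and the control groups in a 12-sample fit, with edgeR 4.0.16 in R 4.3.3 (TMM, filterByExpr, two-sided quasi-likelihood F tests, Benjamini-Hochberg over all genes, threshold 0.05). Standard errors are the log2 fold change over the root of F, and intervals (95%) use edgeR's degrees of freedom. The fits were run on simulated counts with known folds and an assumed spread. The simulation did not model differences in cell types or Y-linked signal. The labels name no molecular identifiers, and the floor of 3 counts covers counting error only. Alternatives used DESeq2 1.42.0, limma 3.58.1 on log2(FPKM + 1) and log2(FPKM + 0.1), other scaling, no filter, the replicate block, a covariate for Y-linked signal and samples left out. Named were, in each knockout comparison, the 5 largest estimates each way with mean levels of 5 CPM or more, in the control comparison the 5 largest called differences each way, complete isoform families, and genes of the other lists past the threshold; further genes were named after their values were seen. The genes and lists were chosen with earlier results of these data known.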

Additional observations from a re-analysis of the deposited data

How the results depend on the processing

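Over the 35 genes, the count of calls stayed at 0 in both knockout comparisons under every alternative run except DESeq2 (1 gene in each, Pdk4 in the LDH set and Pdk1 in the Acly set) and leaving out LDH knockout replicate 3 (1, Pdk4). Leaving out samples one at a time gave 0 to 1 of the 35 in the LDH set, 0 in the Acly set, 0 for the difference of effects and 13 to 17 in the control comparison. Over all genes, the LDH count of 332 went to 901 with DESeq2, 3 with the Y-linked covariate, 15 in the samples without Y-linked signal (an alternative chosen after seeing the data) and 95 to 1068 with a sample left out, the extremes being without control replicate 3 and without knockout replicate 3. The Acly count of 19 went to 11 without TMM, 32 without the filter, 247 with DESeq2, 31 with all 12 samples in the fit, 6 with the Y-linked covariate and 0 to 132 with a sample left out (132 without knockout replicate 2, 0 without control replicate 1 or 3, where 2323 and 1008 genes had an unadjusted edgeR p under 0.05). The count for the difference of effects, 23, went to 213 with DESeq2 and 5 to 143 with a sample left out (143 without LDH knockout replicate 3, 5 without Acly control replicate 3).

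The replicate block left 8 genes in the Acly set and 5 for the difference of effects, and changed no call among the 35 in either knockout comparison. Samples with the same number did not deviate together, with correlations across genes of 0.0478, -0.13 and -0.0184 in the LDH set and 0.0203, -0.187 and -0.194 in the Acly set.

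Estimates near 0 turned sign. In the LDH set Idh3a (0.006) was -0.008 without TMM and -0.006 with both FPKM settings. With samples left out Idh3a ranged from -0.035 to 0.057, Idh3b from -0.072 to 0.002, Mdh1 from -0.032 to 0.089, Suclg2 from -0.081 to 0.002 and Sucla2 from 0 to 0.121. In the Acly set Idh2 (0.006) was -0.036 without TMM, -0.065 and -0.068 with FPKM plus 1 and 0.1, -0.013 with the replicate block and -0.006 with all 12 samples, and Suclg1 was -0.004 with both FPKM settings. With samples left out Idh2 ranged from -0.1 to 0.167, Suclg1 from -0.008 to 0.113 and Got1 from -0.136 to 0.025. The difference of effects of Pdk3 (-0.014) was 0.005 without TMM, 0.008 and 0.006 with the FPKM settings, and -0.064 to 0.061 with samples left out. The cause was not tested. Genes at a few CPM, such as Me3, Pdk4 and Pdp1, have the widest intervals at this depth.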
